A study of Mus musculus with 6 samples.

Results

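The iron transport and storage genes described here are 10 rows of the deposited expression table: the transporters Slc11a2, Slc11a1 and Slc40a1, the transferrin receptor Tfrc, the reductase Steap3, the ferritin subunits Fth1 and Ftl1, the iron sensors Aco1 and Ireb2, and the haem-degrading enzyme Hmox1. The rows were found by exact gene symbol, which gave 1 row for each symbol, 10 of 22381 rows in all. The list was drawn up by function and also selected on these same group values, which were already known, so the values of the members are given as a description with no test and support nothing. RNA was sequenced from LSK cells, the Lin- Sca-1+ c-Kit+ fraction of bone marrow that contains stem cells and multipotent progenitors. The 2 groups were C57BL/6 mice of 8 to 12 weeks carrying either Tgif1-/-, the loss of the homeodomain repressor Tgif1 (3 samples), or the wild-type gene (3 samples). No further treatment or allele is named. How the allele was made, which part of the gene it removes, and whether a sample was 1 animal or a pool are not given in the sources used here.

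Cells take up iron mainly as transferrin bound to the receptor Tfrc. Inside the endosome, Steap3 reduces the released iron and Slc11a2, also called DMT1, carries it into the cytosol. Surplus iron is stored in ferritin, a shell of H (Fth1) and L (Ftl1) subunits, or leaves the cell through the exporter ferroportin, Slc40a1. The iron regulatory proteins Aco1 (IRP1) and Ireb2 (IRP2) bind a hairpin in messenger RNA, the iron-responsive element (IRE), when iron is scarce. A hairpin in the 5′ UTR lets them block translation, while hairpins in the 3′ UTR of Tfrc let them protect the transcript from decay, so the level of Tfrc mRNA is a known readout of cellular iron. Blood-forming cells that enter the erythroid lineage are among the heaviest users of iron in the body.

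The hairpin letters are shown because they divide the members into those in which the IRE lies before the coding region and those in which it lies after it. A script searched the transcript strand of the GENCODE M21 coding transcripts for a C, 5 bases, the loop CAGTGN and 5 further bases, of which at least 4 could pair with the first 5 (Watson-Crick or G with T). Capitals mark the bulged C and the 6 bases of the loop. All positions of these hairpins are GRCm38, which is not the build of the expression table.
Fth1, 5′ UTR, chr19:9982731-9982760, plus strand: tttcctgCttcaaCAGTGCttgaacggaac
Ftl1, 5′ UTR, chr7:45459779-45459808, minus strand: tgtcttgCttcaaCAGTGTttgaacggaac
Slc40a1, 5′ UTR, chr1:45925465-45925494, minus strand: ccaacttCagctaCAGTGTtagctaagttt
Slc11a2, 3′ UTR, chr15:100395153-100395182, minus strand: gagccatCagagcCAGTGTgtttctatggt
Tfrc, 3′ UTR, chr16:32631218-32631247, plus strand: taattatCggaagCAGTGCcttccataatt
Tfrc, 3′ UTR, chr16:32631597-32631626, plus strand: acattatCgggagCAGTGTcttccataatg
Tfrc, 3′ UTR, chr16:32631662-32631691, plus strand: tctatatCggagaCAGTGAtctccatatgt
Tfrc, 3′ UTR, chr16:32631709-32631738, plus strand: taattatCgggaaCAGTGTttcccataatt

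In the members these letters stood in a UTR of 5 genes, with 4 matches in Tfrc and 1 in each of the others. The Slc11a2 match paired at 4 of the 5 stem positions and the other 7 matches shown at 5 of 5. Of the 6 coding transcripts of Slc11a2, 1 held the match, the longest at 4415 bases, whereas the next longest, at 3025 bases, had a 3′ UTR of 1189 bases without it. The expression table has 1 value for the gene, so the form with the hairpin and the form without it were not separated. Slc11a1 had a match inside its coding region, which is not shown, and Aco1, Ireb2, Steap3 and Hmox1 had none. The letters are common: counted in any region, 10.7% of 21901 coding genes and 7.75% of 58797 coding transcripts held a match. The share was 13.6% of the 3916 transcripts within 10% of the length of the long Slc11a2 transcript. No share was computed for matches in a UTR alone or for those paired at 5 of 5 positions. A match is therefore a description of the letters and not evidence of binding.

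The table gave 1 FPKM value for each group (fragments scaled to transcript length and to the mapped total, computed by the authors) and no value for a single sample. Depth and the spread between samples are unknown, and with no SD the order of genes at neighbouring levels cannot be judged against replicate error. The error given below is the standard error implied by the authors' Cuffdiff statistic, the log2 ratio divided by that statistic, and where the 3 samples of a group shared animals it would measure technical spread. Each pair of FPKM values has the group labelled Tgif1-/- first, and ratios divide the first value by the second. Tgif1 itself read 88.6 and 71.5 FPKM with a failed test, so it was not lower in the library group labelled Tgif1-/- and the labels could not be checked by it. The stem and progenitor markers Kit and Ly6a (Sca-1) were high in both groups. Kit was at 193 and 202 FPKM with a failed test, and Ly6a at 120 and 88.9 FPKM. Of the T and NK cell markers, Cd3e was not tested and stood at 0.134 and 0.250 FPKM. Cd4 was at 3.21 and 2.58 FPKM, Klrd1 at 3.12 and 5.27 FPKM, and Nkg7 at 316 and 313 FPKM.

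Slc11a2 was the member that differed, at 31.1 FPKM under the label Tgif1-/- against 7.54 FPKM under the label wild type, a 4.13-fold higher value (log2 2.05). Its test is marked as failed, with the p-value of 1 that the authors' deposited table lists for every failed Cuffdiff row, so the difference has no error. The other 9 members were tested, and their ratios lay between 0.944-fold and 1.37-fold. None of the 9 was called at a deposited Cuffdiff q at or under 0.05, and none had an unadjusted p under 0.05. Over all tested genes 71 of 10730 were called, or 0.662%, a share from which nothing is read here because the members were chosen on this contrast. The authors' deposited table lists a Cuffdiff q of 1.00 for each of the 9, and the smallest p, 0.208, belongs to Hmox1. By value alone 7 of the 10 members were higher under the label Tgif1-/- and 3 lower, and 6 differed by less than 1.1-fold. Such small differences were common, since all rows with at least 1 FPKM in a group had a median absolute log2 ratio of 0.11. Most of those rows therefore also differed by less than 1.1-fold. The median log2 ratio of the 10 members was 0.08, beside -0.03 over all tested genes, of which 4550 were higher and 6133 lower.

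**Figure D1:**
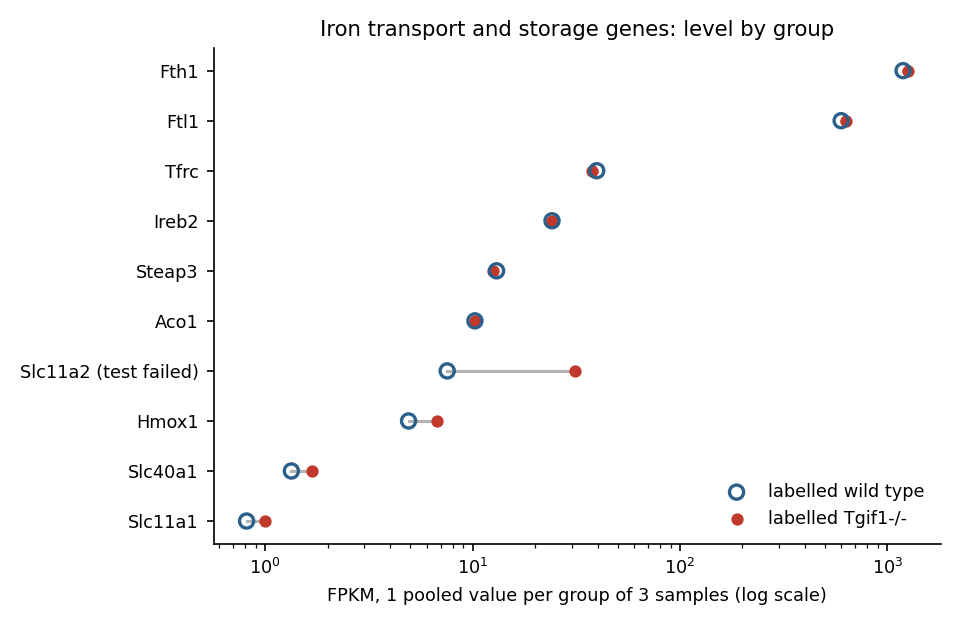
FPKM of the 10 members on a log axis, with open circles for the group labelled wild type, filled circles for the group labelled Tgif1-/- and a grey line joining the pair; each point is 1 pooled value of 3 samples, with no error available. Only the line of Slc11a2 is long, from 7.54 to 31.1 FPKM, while the points of Ireb2 and Aco1 lie on top of each other.

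The members covered levels from 0.812 FPKM (Slc11a1) to 1255 FPKM (Fth1), on a scale that is per transcript length and so allows genes to be set side by side. Ferritin dominated: Fth1 and Ftl1 together made up 93.8% of the summed FPKM of the 10 genes in the group labelled Tgif1-/- and 94.6% in the other. Fth1 ranked 112th and 116th among the 22381 rows of the table, while the median row stood at 2.08 and 2.23 FPKM. The order under the label wild type was Fth1, Ftl1, Tfrc, Ireb2, Steap3, Aco1, Slc11a2, Hmox1, Slc40a1 and Slc11a1. In the group labelled Tgif1-/- Slc11a2 moved from position 7 to position 4, directly below Tfrc, and the other 9 kept their order among themselves.

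Slc11a2 (ENSMUSG00000023030, chromosome 15, positions 100218329 to 100258581 as the table lists them on an unnamed mouse build) is the proton-coupled carrier of ferrous iron out of endosomes and across the gut wall. Its value went from a level below Aco1 to one above Ireb2, and the ratio of Tfrc to Slc11a2 was 1.20 in the group labelled Tgif1-/- against 5.26 in the group labelled wild type. The ratio of Slc11a2 to the iron exporter Slc40a1 was 18.6 against 5.64. The other rows of the table are given for scale only, since Slc11a2 was chosen on this value and nothing is read from its place among them. Among 2990 rows with a failed test and at least 1 FPKM in both groups, 2 differed by at least 4-fold, Slc11a2 and the proteasome subunit Psmd14, which stood at 1.59 and 8.58 FPKM. Those failed rows had a median absolute log2 difference of 0.10, with a 95th percentile of 0.40. Among 9053 tested rows at the same level 3 differed by at least 4-fold, namely Ehd3 upward and Ebf1 and Gm10985 downward. Over all 12054 such rows of any status these 5 were the ones past 4-fold, and the other 4 differed by more than Slc11a2 in absolute log2, from 2.07 to 2.65. Psmd14, Ehd3, Ebf1 and Gm10985 were named after their values were seen.

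**Figure D2:**
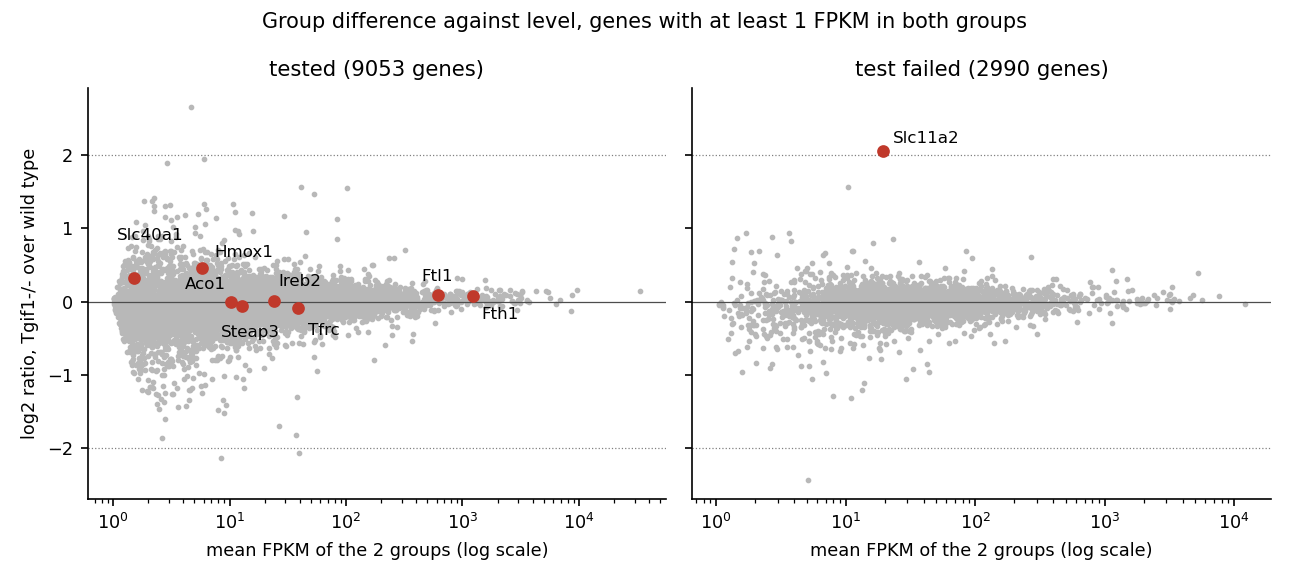
Log2 ratio (Tgif1-/- label over wild-type label) against mean FPKM (log axis) for genes reaching 1 FPKM in each group, 9053 tested at left and 2990 with a failed test at right; grey points are genes, red points are members, and dotted lines mark a 4-fold difference. Slc11a2 is at a log2 ratio of 2.05 in the right panel, where Psmd14 is the point below the lower dotted line, and the 8 members at left lie within the cloud near 0.

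The failed status limits what the Slc11a2 value can carry. The row shares its listed interval with a second row, Gm5475, which also failed and read 0.0107 and 0.00933 FPKM. A shared interval was the state of 38.4% of failed rows and 20.7% of tested rows, and its part in the Slc11a2 value was not tested. Of the 12452 rows with at least 1 FPKM in a group, 24.2% had failed tests. With a pseudocount of 1 FPKM added to both values the log2 ratio of Slc11a2 was 1.91.

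The genes that act with Slc11a2 in the transferrin cycle did not show such a difference. Tfrc, the receptor whose mRNA carries the 4 hairpins after its coding region, was at 37.4 and 39.7 FPKM. The log2 ratio of Tfrc was -0.08 (implied standard error 0.33), with a 95% interval of 0.602-fold to 1.48-fold. Steap3, the ferrireductase of the endosome, was at 12.5 and 13.0 FPKM with an interval of 0.738-fold to 1.25-fold. The Tfrc to Steap3 ratio was 2.99 in the group labelled Tgif1-/- and 3.04 in the other. Slc11a2 and Tfrc both hold IRE letters in the 3′ UTR, with log2 ratios of 2.05 (failed test, no error) and -0.08. The part of the IRE in these values was not tested. In bulk RNA, a change in the number of cells that express a gene and a change in RNA per cell cannot be told apart.

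Slc11a1 (NRAMP1), the phagosomal metal transporter of macrophages and neutrophils and the closest relative of Slc11a2, was the lowest member at 0.994 and 0.812 FPKM. Its log2 ratio of 0.29 had an implied standard error of 0.62, the widest of the 9 tested members, and a 95% interval from 0.530-fold to 2.83-fold. A difference of up to 2.83-fold in this gene would therefore fit inside the authors' error. The ratio of Slc11a2 to Slc11a1 was 31.3 in the group labelled Tgif1-/- and 9.28 in the group labelled wild type.

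The ferritin subunits were close to each other in their group differences. Fth1, the H subunit with ferroxidase activity, was at 1255 and 1191 FPKM, and Ftl1, the L subunit that aids mineral formation, at 634 and 599 FPKM. Both log2 ratios rounded to 0.08, with implied standard errors of 0.23 for Fth1 and 0.20 for Ftl1. The 95% intervals ran from 0.776-fold to 1.43-fold for Fth1 and from 0.810-fold to 1.38-fold for Ftl1. The H to L ratio of FPKM was 1.98 in the group labelled Tgif1-/- and 1.99 in the other. GENCODE M21 names 7 ferritin pseudogenes, none of them a row of the table. Whether reads from such copies were counted to Fth1 or Ftl1 was not tested, and both levels are uncertain to that extent. The ferritin relatives Fthl17 and Ftmt, the mitochondrial form, were listed at 0 in both groups.

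The iron sensors had the smallest differences of the 10 genes. Aco1, a cytosolic aconitase that turns into an RNA-binding protein when it loses its iron-sulphur cluster, was at 10.2 and 10.3 FPKM, with a 95% interval of 0.722-fold to 1.38-fold. Ireb2, which is removed by iron-dependent degradation, was at 24.3 and 24.1 FPKM with an interval of 0.767-fold to 1.32-fold. Ireb2 stood above Aco1 in both groups, by 2.37 and 2.35 times. Both proteins are controlled after translation, so these values describe their mRNA and not their activity.

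Hmox1, which opens the haem ring and frees its iron, had the highest ratio among the tested members. It was at 6.74 and 4.91 FPKM (log2 0.46, implied standard error 0.36), and the 95% interval ran from 0.838-fold to 2.25-fold. Slc40a1, the exporter ferroportin, was at 1.67 and 1.33 FPKM (log2 0.33, implied standard error 0.43), with an interval from 0.702-fold to 2.24-fold. Hmox1, Slc40a1 and Slc11a1 were the 3 lowest members in the group labelled Tgif1-/- and the 3 with tested ratios above 1.2-fold. All 3 intervals included no difference.

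**Figure D3:**
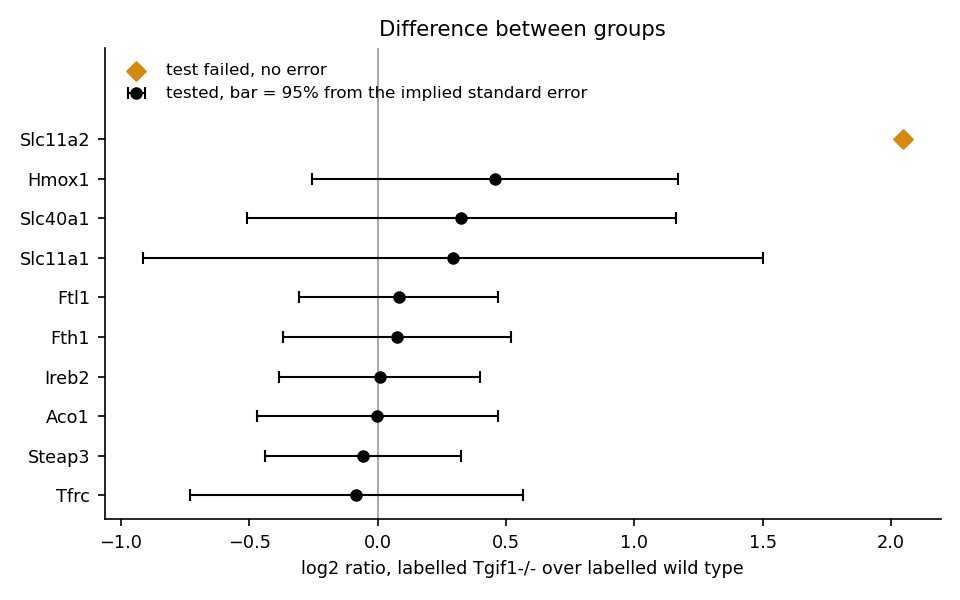
Log2 ratio of each member, labelled Tgif1-/- over labelled wild type, with 95% bars from the implied standard error of the authors' test (black circles) or no error where the test failed (orange diamond). The 9 bars all cross 0 and the Slc11a2 point at 2.05 has no bar.

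These 3 genes are abundant in macrophages that recycle red cells, and Slc11a2, Tfrc and Steap3 in erythroid precursors, so markers of both cell types were read beside them. In the macrophage list 10 of 14 markers were tested, 6 of those higher and 4 lower, none was called by Cuffdiff and 1 had an unadjusted p under 0.05. The summed macrophage markers were 74.9 and 70.1 FPKM, and no marker was at 0 in both groups. The largest part of these sums was Cd68, at 37.4 and 32.3 FPKM with a failed test. The marker with the unadjusted p under 0.05 was Timd4, a receptor for dying cells, at 0.385 and 0.0724 FPKM. Timd4 was thus under 1 FPKM in both groups, and little can be read from it. The complement gene C1qa was at 0.833 and 0.405 FPKM, the adhesion receptor Vcam1 at 2.29 and 1.78 FPKM, and Spic at 11.9 and 11.4 FPKM. The 4 lower tested markers were Emr1 (F4/80), Cd163, Siglec1 and Mrc1. Emr1 was at 0.691 and 0.826 FPKM and Cd163 at 3.43 and 4.32 FPKM. Siglec1 and Mrc1 had log2 ratios of -0.04 and -0.01. In the erythroid list 16 of 17 markers in the table were tested, 14 higher and 2 lower under the label Tgif1-/-, none called by Cuffdiff and 1 with an unadjusted p under 0.05. The erythroid markers summed to 754 and 606 FPKM. Most of these sums came from Car2, at 374 and 333 FPKM, and Car1, at 281 and 187 FPKM. Car1 was the erythroid marker with the unadjusted p under 0.05. The beta-globin row Hbb-b1 was level at 29.5 and 29.8 FPKM and Tfrc was not higher. In the neutrophil list 9 of 10 tested markers were lower, none called and 6 at an unadjusted p under 0.05, with sums of 3773 and 4166 FPKM. Most of these sums was Mpo, at 3055 and 3289 FPKM with a failed test. S100a8 was at 38.1 and 73.7 FPKM, and Mmp9, the tested marker that was not lower, at 0.593 and 0.563 FPKM. Markers of 2 further cell types held called genes. In the mast cell and basophil list all 9 tested markers were higher and Cuffdiff called 4 of them, with sums of 460 and 213 FPKM and Tpsab1 at 0 in both groups. In the B cell list 9 of 10 tested markers were lower and Cuffdiff called 4 of them, with sums of 63.6 and 135 FPKM. The part of these cell types in the member values was not tested.

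Beyond the members, 8 lists of iron and haem genes held 117 genes of the table, of which 73 were tested, 26 had a failed test and 18 were not tested. None of the 73 was called by Cuffdiff, against 0.662% of all tested genes. At an unadjusted p under 0.05 there were 2, or 2.74%, where all tested genes gave 580, or 5.41%. The tested genes divided into 38 higher and 35 lower with a median log2 ratio of 0.02. Of the 95 genes that reached 1 FPKM in either group, 3 differed by at least 1.5-fold (Lcn2, Narfl and Uros), or 3.16%, beside 5.00% of all genes at that level.

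**Figure D4:**
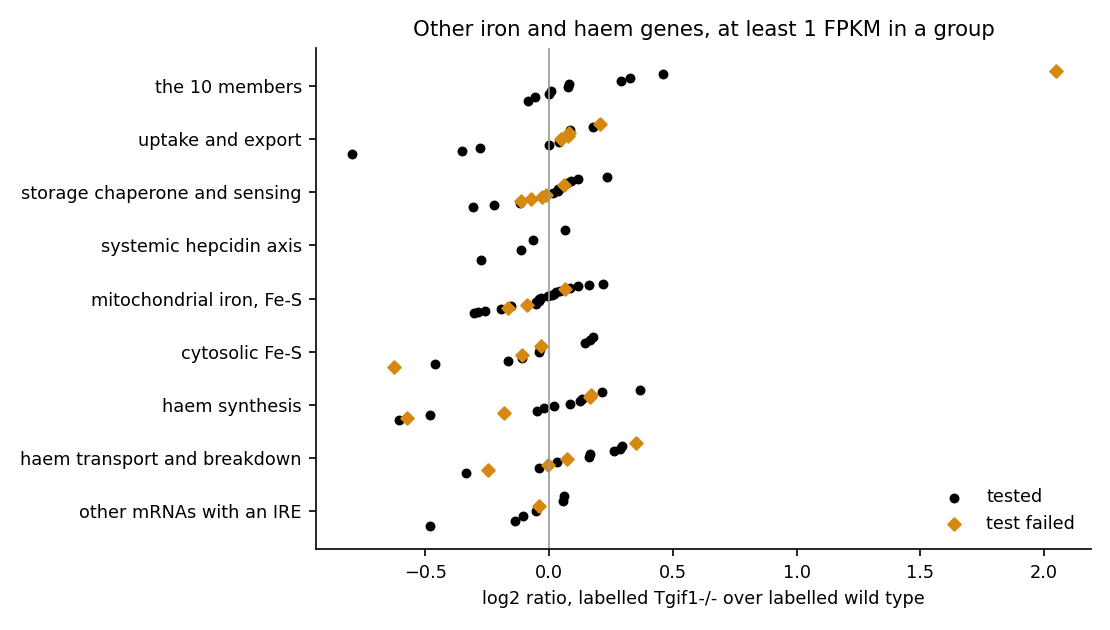
Log2 ratios, labelled Tgif1-/- over labelled wild type, for the 10 members and for the genes of 8 iron and haem lists that reached 1 FPKM in either group; each point is a gene, black where tested and orange where the test failed, and vertical position within a list only spreads the points. Slc11a2 at 2.05 lies far to the right of all other points, which run from -0.80 to 0.46.

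Uptake and export genes outside the members gave 8 tested genes, 3 higher and 5 lower, none called. Trf, transferrin itself, was at 97.8 and 92.4 FPKM with a failed test. Snx3, a sorting protein that returns Tfrc to the surface, was at 115 and 108 FPKM. The authors' deposited table has the alternative metal importer Slc39a8 at 8.53 and 10.3 FPKM (Cuffdiff p = 0.0775). It has the siderophore binder Lcn2, a neutrophil granule protein also in the neutrophil list, at 5.18 and 8.999 FPKM (Cuffdiff p = 0.0895 in the authors' deposited table).

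Storage, chaperone and sensing genes gave 11 tested genes, 8 higher and 3 lower, none called. Ncoa4, the receptor that delivers ferritin to lysosomes, was at 237 and 201 FPKM, a log2 of 0.23 whose implied standard error was 0.14 (Cuffdiff p = 0.0958, the authors' deposited table). The ubiquitin ligase that removes Ireb2 uses Skp1a at 400.3 and 433 FPKM and Cul1 at 285 and 287 FPKM, both with failed tests. Its ring subunit Rbx1 was at 39.6 and 36.5 FPKM (Cuffdiff p = 0.0852, the authors' deposited table). In the hepcidin axis, a liver pathway that sets body iron, 5 genes were tested with 2 higher and 3 lower, none called. There the BMP receptor Bmpr2 was at 32.1 and 34.8 FPKM, its partner Acvr1 at 3.28 and 3.96 FPKM, and the signal transducer Smad4 at 69.1 and 66.0 FPKM.

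Mitochondrial iron and iron-sulphur assembly genes gave 19 tested genes, 8 higher and 11 lower, none called, within log2 ratios of -0.30 to 0.22. The co-chaperone Hscb was at 116 and 107 FPKM, the assembly protein Isca2 at 40.3 and 49.7 FPKM, and the transporter Abcb8 at 28.4 and 34.7 FPKM. Cytosolic assembly genes gave 8 tested genes, 3 higher and 5 lower, none called. Of these Fam96a was at 138 and 125 FPKM, Bola2 at 72.5 and 74.6 FPKM, Ciao1 at 39.0 and 34.7 FPKM, and Mms19, which delivers clusters to DNA enzymes, at 50.3 and 69.3 FPKM.

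Haem synthesis, the main use of iron in the erythroid lineage, gave 10 tested genes, 6 higher and 4 lower, none called. Uros, the fourth enzyme of the pathway, was at 5.99 and 9.10 FPKM, a log2 of -0.60 (Cuffdiff p = 0.0383 and q = 0.830, the authors' deposited table). Alas2, the erythroid first enzyme, was at 4.58 and 6.39 FPKM, Urod at 75.9 and 67.6 FPKM with a failed test, and Tmem14c, a porphyrinogen transporter, at 71.4 and 65.4 FPKM. Haem transport and breakdown genes gave 8 tested genes, 6 higher and 2 lower, none called. Por, the reductase that supplies electrons to haem oxygenase, was at 88.6 and 79.2 FPKM (Cuffdiff p = 0.0287 and q = 0.711, the authors' deposited table). The haem exporter Abcg2 was at 68.6 and 68.9 FPKM with a failed test, and the haemoglobin scavenger receptor Cd163 at 3.43 and 4.32 FPKM.

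The list of other mRNAs known or proposed to carry an IRE held 9 genes, 6 of them tested, 2 higher and 4 lower, none called. Alas2, described above, had the letters in its 5′ UTR. Sdhd was at 154 and 148 FPKM and Cdc42bpa at 23.8 and 26.2 FPKM, neither with a match in its coding transcripts. The tested genes of that list ran from -0.48 to 0.06 in log2 ratio.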

How the data were processed

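RNA sequencing data from 6 LSK samples, 3 labelled Tgif1-/- and 3 labelled wild type, were used as 1 deposited table. Reads were aligned with TopHat and groups compared with Cuffdiff, versions not given, per the submitters' processing notes. These name the human build hg19, while all 22381 identifiers are mouse identifiers. Per the file headers the authors' columns give 1 FPKM value per group, and the deposited p-value and q-value of each gene. The deposited log2 ratio is wild type over Tgif1-/- and was turned round here. Adjusting the p-values by Benjamini-Hochberg gave the authors' q-values over the 10730 tested genes, and the p-values matched the two-sided normal value of the statistic (10683 genes with a finite statistic, within 0.001). The log2 ratio over that statistic was used as the standard error, and 1.96 of these as the 95% interval. Precision per sample is unknown because depth is unknown. Only 173 of the 20781 identifiers found in GENCODE M21 (GRCm38) kept their position there, so table positions belong to another mouse build, and starts are printed counting from 1.

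Members and gene lists were chosen with earlier results of these data known. All 10 members were named. From each other iron list the called genes were to be named or, with none called, the 2 tested genes with the smallest p and at least 1 FPKM in a group, and also the 2 with the highest mean. Gm5475, Fthl17, Ftmt and the markers were named outside this rule, and a gene that it names is not reported here. A symbol was taken from its row of highest mean FPKM. Lists of LSK, erythroid, macrophage, neutrophil, mast cell and basophil, B cell, and T and NK cell markers were also read. Of the tested T and NK cell markers 0 of 6 were called, and of the LSK markers 0 of 4. The adjustment of p-values and the floor on the error described below were run on simulated data drawn from the implied standard errors. That run does not test the authors' deposited calls. Python 3.11.15, pandas 2.3.3, numpy 2.4.6, scipy 1.17.1 and matplotlib 3.10.9 were used.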

Additional observations from a re-analysis of the deposited data

How the results depend on the processing

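None of the 73 tested iron and haem genes outside the members was called by Cuffdiff in the analysis as reported or in any of the 6 alternatives run (q thresholds of 0.01 and 0.1, at least 1 FPKM in both groups, at least 1.5-fold, a floor on the error, and every row of a symbol). With none called as reported, the q threshold of 0.01 and the FPKM and fold limits could add no call. The floor only raises errors. Only the q threshold of 0.1 and the use of every row were therefore open to a different outcome. Over all genes 71 were called as reported, 39 at a q threshold of 0.01, 41 with at least 1.5-fold, and 21 with each implied standard error raised to no less than its bin's median, with genes split into 20 bins by expression. Pseudocounts of 0.1 and 1 and subtracting the median tested ratio moved the log2 ratio of each tested member by less than its implied standard error, and changed the sign of 1 member, Aco1, from -0.0011 to 0.03 when centred. Centring and a pseudocount of 0.1 left Slc11a2 at 2.08 and 2.03. The median of the 10 members ran from 0.08 to 0.11 over these settings and over the tested members alone. That of the other iron genes ran from -0.0015 to 0.04. Leaving out samples was not run, since the table has 1 value per group, and the missing depth limits what can be said of Slc11a1 and Slc40a1, whose FPKM was near 1.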

Other observations

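The region around Slc11a2 was read after its value was seen. Within 250 kb of its listed interval on chromosome 15 the table has 16 other rows, 13 of them with at least 1 FPKM in a group. Of these 12 were tested and Cuffdiff called none, and none reached an unadjusted p under 0.05. Their log2 ratios ran from -0.16 to 0.26 with a median of -0.02. The nearest rows on either side were AB099516, at 9.81 and 8.22 FPKM with the group labelled Tgif1-/- first, and Letmd1, a mitochondrial membrane protein, at 24.9 and 27.5 FPKM. The abundant neighbour Dazap2 stood at 419 and 449 FPKM.

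Of the iron and haem genes outside the members, 24 of the 95 with at least 1 FPKM in a group had failed tests, or 25.3%, and so carry no error. Their log2 ratios ran from -0.63, for the cytosolic iron-sulphur assembly gene Narfl at 5.45 and 8.41 FPKM, to 0.35, for the biliverdin reductase Blvrb at 36.2 and 28.4 FPKM. Ppox, the enzyme before the last step of haem synthesis, was at 4.87 and 7.25 FPKM. The second transferrin receptor Trfr2 was at 12.6 and 12.2 FPKM. Narfl, Blvrb, Ppox and Trfr2 were named after their values were seen.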
